A study of Homo sapiens with 14 samples.

Results

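The genes described here are 45 human genes of S phase and DNA synthesis, out of 63140 genes in the count table. They are listed by function, in a rule that uses no measured value, although earlier results of these data were known when the list was made: nucleotide supply (5 genes), origin licensing and firing (11), DNA polymerases and primase (9), the sliding clamp and its loaders (7), single-strand binding, Okazaki fragment maturation and repair (7), fork protection (3), and chromatin assembly with histone mRNA (3). The helicase subunits MCM2 to MCM7 and the GINS complex are not among them. All 45 passed the filter on low counts, among 18321 genes tested.

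Polyadenylated RNA was sequenced from HEK293T cells 24 h after transfection of an RNA duplex. HEK293T is a line from human embryonic kidney with SV40 large T antigen. The miR-34a-RS group (n = 4, replicates 1, 2, 3 and 5) received a miR-34a duplex whose guide strand has abasic ribose spacers in place of the residues at positions 13 and 14. The miR-34a-WT group (n = 5) received the duplex with the unaltered guide, and the control group (n = 5) received the AllStars siRNA, a negative control with no intended human target. All groups share the cell line, the transfection and the time point. Nothing in the sources used here says that replicates came from separate cultures, so the p-values reflect only how far these libraries differ from each other, and that spread may be technical.

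S phase begins when licensed origins fire. Origin recognition proteins with CDC6 and CDT1 load the replicative helicase in G1, kinases then switch it on, and polymerases copy both strands behind it while the PCNA clamp holds them on the DNA. Many of these genes are transcribed by E2F factors at the G1/S transition, when cyclin-dependent kinases inactivate the retinoblastoma protein. In HEK293T cells large T antigen binds the retinoblastoma protein family, so this brake is already weakened. miR-34a is induced by p53 and is known for targeting cyclin-dependent kinases and E2F factors, and a guide finds its targets mainly by pairing of its seed, positions 2 to 8, with the 3′ UTR of an mRNA.

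The guides are shown because the groups differ in this strand. The sequence of the transfected duplex was not read from the labels, so the lines give the mature hsa-miR-34a-5p of RefSeq (GRCh38.p14, chr1:9151735-9151756, minus strand, 22 bases), with the seed in capitals and, in the altered guide, N for each abasic position.
miR-34a-WT guide: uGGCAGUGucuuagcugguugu
miR-34a-RS guide: uGGCAGUGucuuNNcugguugu
The seed is the same in both guides, and the abasic positions lie in the stretch (positions 13 to 16) that can add supplementary pairing at some target sites.

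Library totals ran from 22.24 to 36.26 M counts, and the lowest count of any of the 45 genes in any library was 644 and the highest 14621. Mitochondrially encoded genes took 2.71% ± 0.374 (SD, n = 4) of the counts with miR-34a-RS, 3.05% ± 0.293 (n = 5) with miR-34a-WT and 3.002% ± 0.145 (n = 5) in control libraries. Genes known for this line were present in every library: NEFM, a neurofilament gene, had 73.9 to 93.8 CPM with miR-34a-RS, 71 to 91.1 CPM with miR-34a-WT and 94.5 to 118 CPM in control libraries. PAX8, a kidney marker, was at or near 0, with at most 0.0302, 0.0774 and 0 CPM in these groups. CPM is a gene's count relative to its library size, here scaled by TMM, a factor computed on the premise that most genes do not differ between libraries. Per kilobase of exon, PCNA had the highest level of the 45 genes in control libraries, 240.5 RPKM, followed by RPA2 at 95.05 RPKM, and POLA2 the lowest, 5.31 RPKM.

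The 45 genes did not move as a block against control. TK1, thymidine kinase of the salvage pathway, fell by 1.48 on the log2 scale with miR-34a-RS and by 1.53 with miR-34a-WT, and UNG and CDT1 fell less, while RPA3, DBF4, POLA2 and SLBP rose under both miRNAs and PCNA did not pass the test. With miR-34a-RS 10 of the 45 genes fell (22.2%) and 4 rose (8.89%), and of all tested genes 18.4% fell and 16.2% rose. With miR-34a-WT 9 fell (20%) and 8 rose (17.8%), and of all tested genes 21.3% fell and 18.9% rose. The shares that fell, and the share that rose with miR-34a-WT, were thus near those of all genes. The median log2 fold change of the 45 genes was 0.0004 with miR-34a-RS and 0.011 with miR-34a-WT, beside medians of -0.014 and -0.019 over all tested genes. Calls are an adjusted p under 0.05 in the quasi-likelihood test of edgeR, with p-values adjusted over all tested genes by Benjamini-Hochberg, and both comparisons use the same control libraries. In bulk RNA, fewer cells in S phase and less RNA per cell cannot be told apart.

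**Figure D1:**
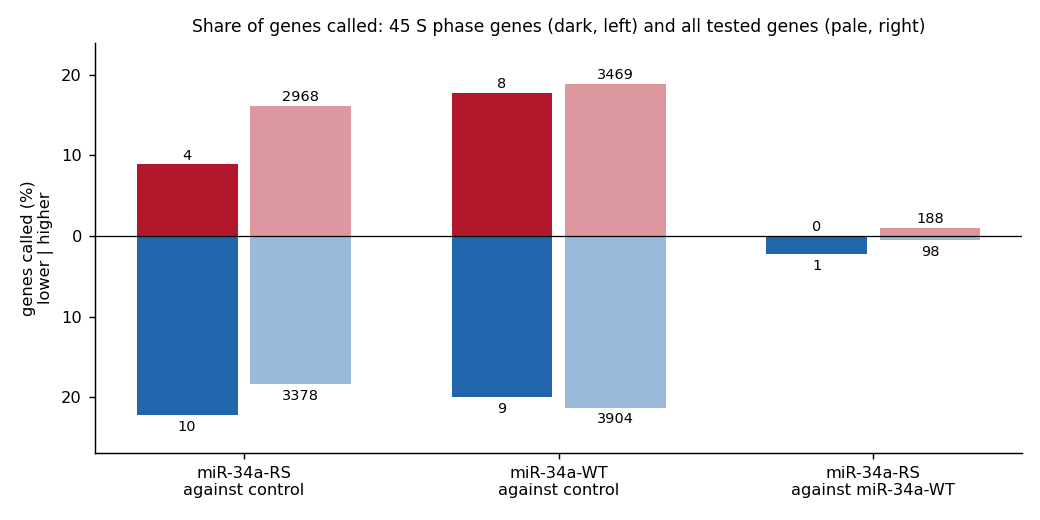
Share of genes past an adjusted p of 0.05 (y axis, percent; higher above the line, lower below) in 3 comparisons, for the 45 S phase genes (dark) and all 18321 tested genes (pale), with the number of genes at each bar. With miR-34a-WT the dark and pale bars are nearly level, and with miR-34a-RS 4 of the 45 genes rose and 10 fell.

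Summed over the 45 genes, the level was 6153 ± 74.8 CPM with miR-34a-RS, 6283 ± 58.8 CPM with miR-34a-WT and 6422 ± 23.5 CPM in control libraries (SD). Without TK1 the sums were 6104.5 ± 71.4 CPM with miR-34a-RS, 6237 ± 56.7 CPM with miR-34a-WT and 6288 ± 29.8 CPM in control libraries. The 5 nucleotide supply genes together stood at 859.6 ± 25.1 CPM with miR-34a-RS, 911 ± 24.3 CPM with miR-34a-WT and 991 ± 21.7 CPM in control libraries. Those of the clamp and its loaders stood at 981 ± 25.5 CPM with miR-34a-RS, 1018 ± 17.0 CPM with miR-34a-WT and 984 ± 19.0 CPM in control libraries. With miR-34a-RS the sums over the 45 genes, with and without TK1, lay below those of all control libraries. With miR-34a-WT both of these sums overlapped the control range. The nucleotide supply sums of both miRNA groups lay below all control libraries. TK1 is among these 5 genes, and their sum without TK1 was not computed, so a fall of the role apart from TK1 is not shown. With miR-34a-WT, TYMS fell, while RRM1 (log2 fold change 0.07), RRM2 (-0.07) and DUT (0.18) did not pass the test. Sums of the clamp and its loaders overlapped between miR-34a-RS (951 to 1009 CPM) and control (957 to 1010 CPM). These sums are descriptions and were not tested.

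**Figure D2:**
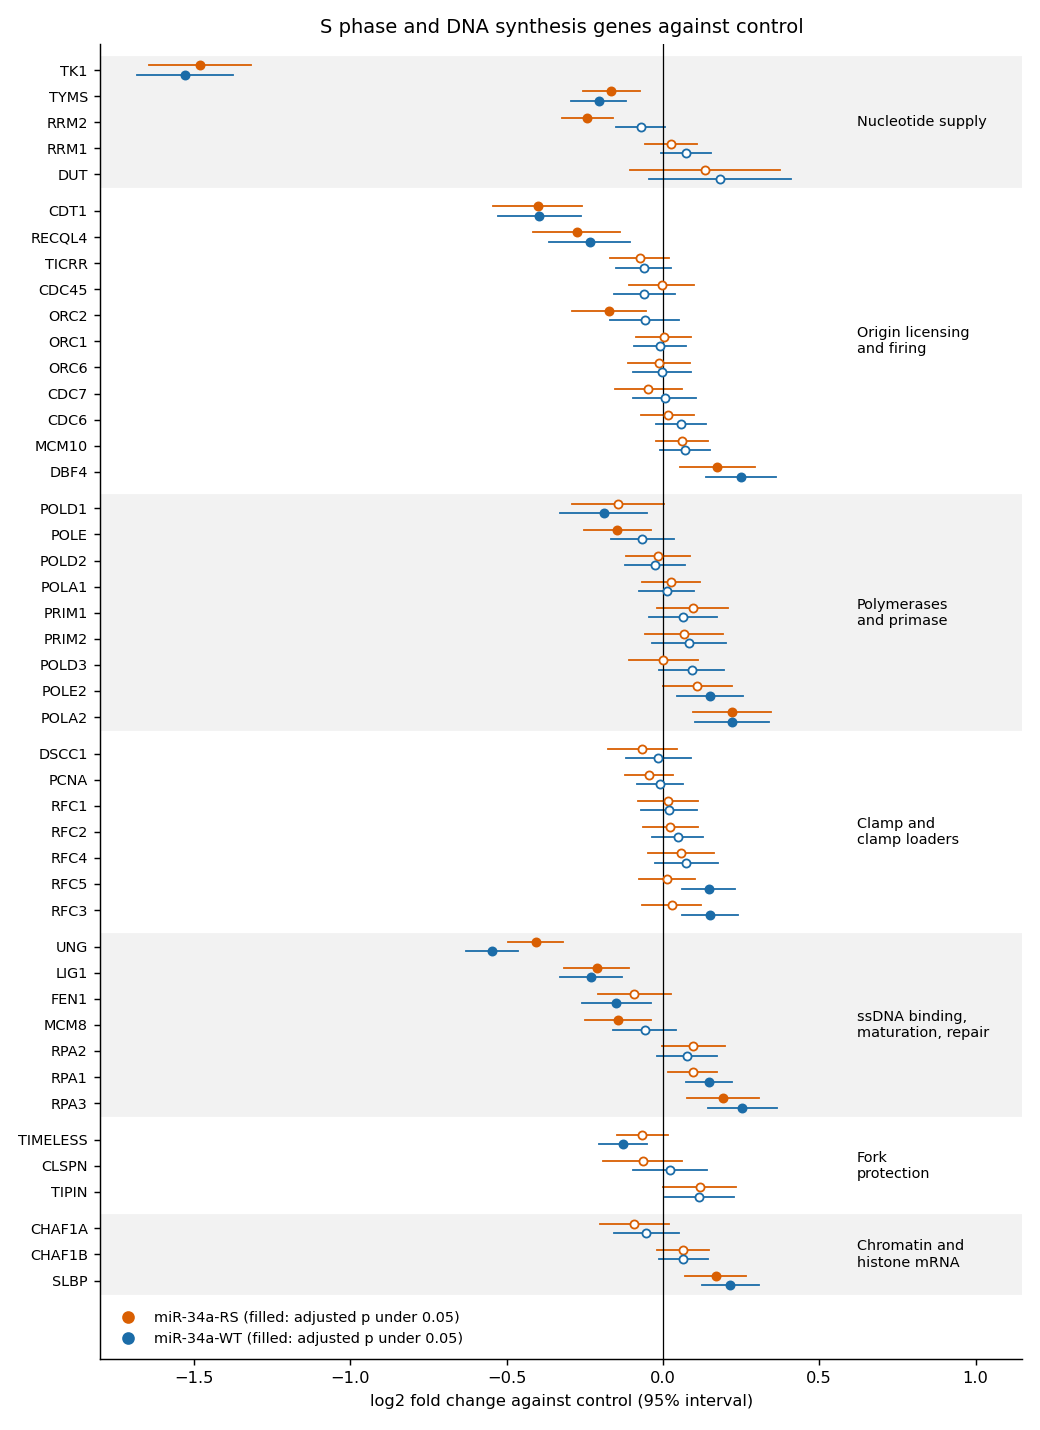
Log2 fold change against control (x axis) of each of the 45 genes, grouped by role, with 95% intervals, for miR-34a-RS (orange) and miR-34a-WT (blue); filled points passed an adjusted p of 0.05. TK1 stands alone at the left, and all other genes lie between -0.55 and 0.25.

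Among the nucleotide supply genes, TK1 and TYMS fell with both miRNAs, RRM2 fell with miR-34a-RS, and RRM1 and DUT did not pass the test. TK1 phosphorylates thymidine recovered from outside the cell or from DNA breakdown. Its level was 40.5, 52.3, 47.7 and 51.8 CPM with miR-34a-RS, 42.8, 50.6, 42.3, 48.0 and 48.5 CPM with miR-34a-WT and 114, 138, 129, 138 and 152 CPM in control libraries. Every miRNA library was below every control library, and the miRNA groups overlapped each other. TK1 fell by 1.48 on the log2 scale with miR-34a-RS (SE 0.08, edgeR adjusted p = 4.59e-13) and by 1.53 with miR-34a-WT (SE 0.07, edgeR adjusted p = 4.65e-14).

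TYMS is thymidylate synthase, which makes dTMP from dUMP. It had 41.0, 41.2, 42.3 and 40.4 CPM with miR-34a-RS, 39.2, 40.6, 39.3, 40.8 and 40.5 CPM with miR-34a-WT and 48.9, 44.7, 46.7, 45.8 and 45.1 CPM in control libraries. The miRNA libraries all lay below the control libraries. TYMS fell by 0.17 (SE 0.04, edgeR adjusted p = 0.00493) with miR-34a-RS and by 0.21 (SE 0.04, edgeR adjusted p = 3.06e-04) with miR-34a-WT. Its exons overlap those of ENOSF1 on the opposite strand, and with a kit that keeps no strand information the reads of both genes cannot be told apart there.

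RRM2 is the small subunit of ribonucleotide reductase, which makes deoxyribonucleotides, and its level is the usual limit on the enzyme in cycling cells. It had 309, 308, 292 and 297 CPM with miR-34a-RS, 336, 347, 345, 335 and 334 CPM with miR-34a-WT and 369, 349.6, 368, 356 and 340.0 CPM in control libraries. The miR-34a-RS libraries were below all others, and the miR-34a-WT and control libraries overlapped. RRM2 fell by 0.24 with miR-34a-RS (SE 0.04, edgeR adjusted p = 3.03e-05), and with miR-34a-WT its log2 fold change was -0.072 (SE 0.04, edgeR adjusted p = 0.136). The large subunit gene, RRM1, had log2 fold changes of 0.03 and 0.07 with miR-34a-RS and miR-34a-WT. DUT, the dUTPase that keeps uracil out of DNA, had 0.13 (SE 0.11) and 0.18 (SE 0.11), the least precise values of the 45 genes.

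**Figure D3:**
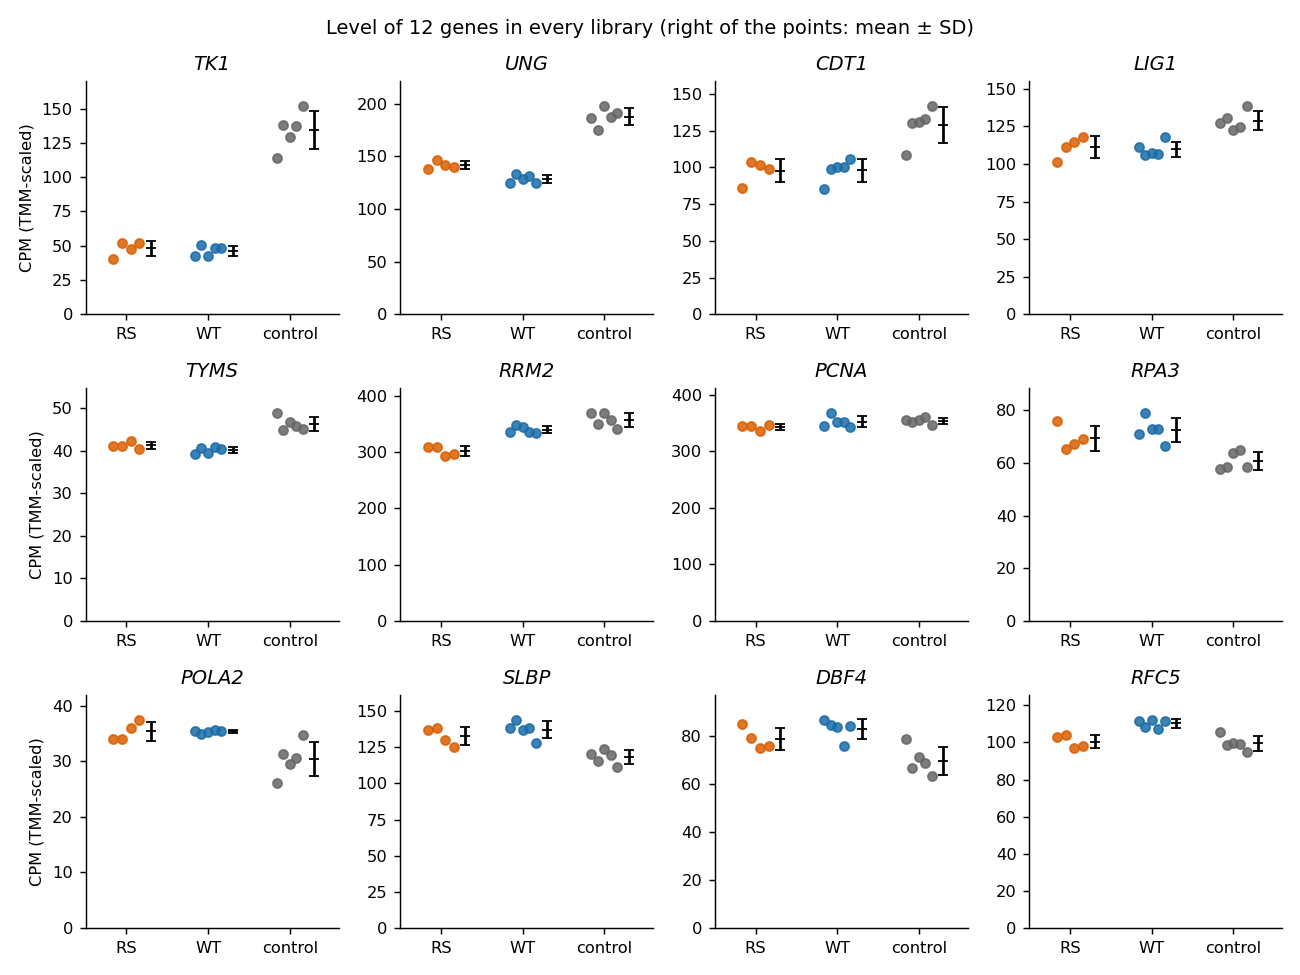
Level in CPM (y axes, from 0) of 12 of the 45 genes in every library, with mean ± SD to the right of the points, for miR-34a-RS (n = 4), miR-34a-WT (n = 5) and control (n = 5). The miRNA libraries of TK1, between 40.5 and 52.3 CPM, lie far below the control libraries, while PCNA is level.

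Of the 11 genes of origin licensing and firing, CDT1 and RECQL4 fell with both miRNAs, ORC2 fell with miR-34a-RS, and DBF4 rose with both. CDT1 helps CDC6 to load the helicase and is destroyed once S phase starts. It had 86.3, 104, 102 and 99.2 CPM with miR-34a-RS, 85.2, 98.6, 100.05, 100.1 and 106 CPM with miR-34a-WT and 109, 130.5, 131, 133 and 142 CPM in control libraries. Replicate 1 was the lowest library of each group, and no miRNA library reached a control library. CDT1 fell by 0.40 with miR-34a-RS (SE 0.07, edgeR adjusted p = 5.27e-05) and by 0.40 with miR-34a-WT (SE 0.06, edgeR adjusted p = 2.145e-05).

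RECQL4, a helicase of the RecQ family that acts in origin firing, had 115, 132, 139 and 141 CPM with miR-34a-RS, 129, 134, 136, 133 and 146 CPM with miR-34a-WT and 144, 161, 149, 156 and 189 CPM in control libraries. The miR-34a-RS libraries lay below all control libraries, and 1 miR-34a-WT library lay within the control range. RECQL4 fell by 0.28 (SE 0.07, edgeR adjusted p = 0.00219) and by 0.23 (SE 0.06, edgeR adjusted p = 0.00414) with miR-34a-RS and miR-34a-WT.

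DBF4 is the regulatory subunit of the CDC7 kinase, which phosphorylates the loaded helicase. It had 84.9, 79.0, 74.9 and 75.9 CPM with miR-34a-RS, 86.8, 84.4, 83.6, 75.8 and 84.0 CPM with miR-34a-WT and 78.8, 66.7, 71.0, 68.7 and 63.2 CPM in control libraries. Control replicate 1 lay within the range of both miRNA groups. DBF4 rose by 0.17 with miR-34a-RS (SE 0.06, edgeR adjusted p = 0.0207) and by 0.25 with miR-34a-WT (SE 0.05, edgeR adjusted p = 6.19e-04). Without control replicate 5 the miR-34a-RS value was 0.14 and no longer passed (edgeR adjusted p = 0.061). CDC7 itself had -0.047 and 0.0048.

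ORC2, a subunit of the origin recognition complex, had 95.3, 88.6, 83.6 and 81.4 CPM with miR-34a-RS, 102, 99.1, 93.3, 87.0 and 90.3 CPM with miR-34a-WT and 106, 96.5, 98.7, 99.7 and 89.6 CPM in control libraries. All 3 groups overlapped. ORC2 fell by 0.17 with miR-34a-RS (SE 0.06, edgeR adjusted p = 0.0216), a call lost without control replicate 1 (-0.14) or 2 (-0.16) or miR-34a-RS replicate 3 (-0.15) or 5 (-0.14). The other 7 genes of this role (ORC1, ORC6, CDC6, CDC7, CDC45, MCM10 and TICRR) passed in neither comparison, with log2 fold changes from -0.074 to 0.06 with miR-34a-RS and from -0.062 to 0.07 with miR-34a-WT.

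Among the polymerases and primase, POLA2 rose with both miRNAs, POLE2 rose and POLD1 fell with miR-34a-WT, and POLE fell with miR-34a-RS. POLA2, the regulatory subunit of the polymerase alpha that lays down primers with primase, had 33.9, 33.9, 36.03 and 37.5 CPM with miR-34a-RS, 35.5, 34.9, 35.3, 35.6 and 35.5 CPM with miR-34a-WT and 26.1, 31.3, 29.4, 30.5 and 34.7 CPM in control libraries. The highest control library lay among the miR-34a-RS libraries and just below the miR-34a-WT libraries. POLA2 rose by 0.22 with miR-34a-RS (SE 0.06, edgeR adjusted p = 0.00569) and by 0.22 with miR-34a-WT (SE 0.06, edgeR adjusted p = 0.00306).

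POLE, the catalytic subunit of the leading-strand polymerase epsilon, had 275, 279, 304 and 316 CPM with miR-34a-RS, 304, 286, 308, 319 and 334 CPM with miR-34a-WT and 305, 345, 311, 329 and 336 CPM in control libraries. The groups overlapped, and the fall of 0.15 with miR-34a-RS (SE 0.05, edgeR adjusted p = 0.0314) did not hold in 11 of 21 alternatives. Among these were the fits without control replicate 2 (-0.11), 4 (-0.14) or 5 (-0.13), without miR-34a-RS replicate 1 (-0.10) or 2 (-0.12), and without miR-34a-WT replicate 2, 3 or 4 (-0.13 each). With miR-34a-WT its value was -0.067 (SE 0.05).

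POLE2, an accessory subunit of the same enzyme, had 37.1, 37.4, 33.6 and 35.1 CPM with miR-34a-RS, 37.5, 39.3, 37.3, 35.7 and 34.5 CPM with miR-34a-WT and 35.2, 31.3, 34.7, 32.7 and 31.9 CPM in control libraries. The groups overlapped, and POLE2 rose by 0.15 with miR-34a-WT (SE 0.05, edgeR adjusted p = 0.0199) and had 0.11 (SE 0.05, edgeR adjusted p = 0.118) with miR-34a-RS. POLD1, the catalytic subunit of the lagging-strand polymerase delta, fell by 0.19 with miR-34a-WT (SE 0.07, edgeR adjusted p = 0.0264) and had -0.14 with miR-34a-RS. That fall was lost without control replicate 2 (-0.17), 4 (-0.19) or 5 (-0.13) or miR-34a-WT replicate 1 (-0.18), 2 (-0.15), 3 (-0.17) or 4 (-0.18). POLA1, PRIM1, PRIM2, POLD2 and POLD3 passed in neither comparison.

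The clamp gene PCNA, the usual marker of S phase, had 345, 344, 335 and 347 CPM with miR-34a-RS, 345, 368, 351, 352 and 343 CPM with miR-34a-WT and 355, 352, 354, 361 and 347 CPM in control libraries. Its log2 fold change was -0.045 with miR-34a-RS (95% interval -0.12 to 0.03, edgeR adjusted p = 0.385) and -0.0082 with miR-34a-WT (95% interval -0.08 to 0.07, edgeR adjusted p = 0.881). Neither interval reached a change of the size seen for TYMS or CDT1.

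RFC3 and RFC5, small subunits of the replication factor C complex that opens the clamp, rose with miR-34a-WT. RFC3 had 160.5, 143, 141 and 143 CPM with miR-34a-RS, 166, 157, 163, 164 and 151 CPM with miR-34a-WT and 142, 143, 149, 145 and 142 CPM in control libraries. It rose by 0.15 with miR-34a-WT (SE 0.04, edgeR adjusted p = 0.0065), and 3 of 4 miR-34a-RS libraries lay at 141 to 143 CPM, below all miR-34a-WT libraries. RFC5 had 103, 104, 96.7 and 98.3 CPM with miR-34a-RS, 112, 109, 112, 107 and 112 CPM with miR-34a-WT and 106, 98.4, 99.6, 99.2 and 94.7 CPM in control libraries. All miR-34a-WT libraries were above all others, and RFC5 rose by 0.15 with miR-34a-WT (SE 0.04, edgeR adjusted p = 0.00565). With miR-34a-RS no gene of this role passed, and the values of RFC1, RFC2, RFC4 and DSCC1, a subunit of an alternative clamp loader, lay between -0.066 and 0.058.

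For single-strand binding, RPA3 rose with both miRNAs and RPA1 with miR-34a-WT. RPA coats single-stranded DNA at the fork, and RPA3 is its smallest subunit. RPA3 had 75.9, 65.1, 67.2 and 69.0 CPM with miR-34a-RS, 70.8, 79.0, 72.8, 72.8 and 66.4 CPM with miR-34a-WT and 57.5, 58.5, 63.8, 64.8 and 58.6 CPM in control libraries. Every miRNA library lay above every control library. RPA3 rose by 0.19 (SE 0.06, edgeR adjusted p = 0.00919) with miR-34a-RS and by 0.25 (SE 0.05, edgeR adjusted p = 3.91e-04) with miR-34a-WT. RPA1, the large subunit, rose by 0.15 with miR-34a-WT (SE 0.04, edgeR adjusted p = 0.00149) and had 0.094 with miR-34a-RS (SE 0.04, edgeR adjusted p = 0.0541). RPA3 shares exonic sequence with UMAD1 and RPA1 with SMYD4 on the opposite strand.

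LIG1 joins Okazaki fragments, and FEN1 trims their flaps. LIG1 had 101, 111, 115 and 118 CPM with miR-34a-RS, 111, 106, 107, 106 and 118 CPM with miR-34a-WT and 128, 130.3, 123, 125 and 139 CPM in control libraries. No miRNA library reached the control range, and LIG1 fell by 0.21 with miR-34a-RS (SE 0.05, edgeR adjusted p = 0.00183) and by 0.23 with miR-34a-WT (SE 0.05, edgeR adjusted p = 3.66e-04). FEN1 fell by 0.15 with miR-34a-WT (SE 0.05, edgeR adjusted p = 0.0274) and had -0.091 with miR-34a-RS. That fall was lost with DESeq2 (-0.13), without control replicate 2 (-0.13), 3 (-0.14) or 5 (-0.12), and without miR-34a-WT replicate 1 (-0.12), 3 (-0.13) or 4 (-0.12).

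UNG removes uracil from DNA and so acts on the same lesion that DUT prevents. It had 138, 146, 142 and 139.7 CPM with miR-34a-RS, 125, 133, 129, 131 and 125 CPM with miR-34a-WT and 187, 175, 198, 188 and 191 CPM in control libraries. The 3 groups did not overlap, with miR-34a-RS between the others. UNG fell by 0.41 with miR-34a-RS (SE 0.04, edgeR adjusted p = 3.975e-08) and by 0.55 with miR-34a-WT (SE 0.04, edgeR adjusted p = 5.33e-11). MCM8, a helicase of homologous recombination, fell by 0.14 with miR-34a-RS (SE 0.05, edgeR adjusted p = 0.0303) and had -0.059 with miR-34a-WT. Its fall did not hold in 11 of 21 alternatives, among them those without control replicate 1 (-0.11), 3 (-0.14) or 4 (-0.14), miR-34a-RS replicate 2 (-0.12) or 5 (-0.13), or miR-34a-WT replicate 2, 3 or 4 (-0.13 each).

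Of the fork protection genes, TIMELESS, which holds polymerases and helicase together with TIPIN, fell by 0.13 with miR-34a-WT (SE 0.04, edgeR adjusted p = 0.00709) and had -0.066 with miR-34a-RS. That fall was lost without miR-34a-WT replicate 3 (-0.10) and with no filter on low counts (-0.12). CLSPN, the adaptor that passes the ATR signal to CHEK1, had 152, 134, 129 and 125 CPM with miR-34a-RS, 156, 139, 146, 136 and 139 CPM with miR-34a-WT and 156, 142, 147, 128 and 133 CPM in control libraries, and the groups overlapped.

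SLBP binds the stem-loop of replication-dependent histone mRNAs, which are made in S phase. It had 137, 139, 129.9 and 125 CPM with miR-34a-RS, 138, 144, 137, 139 and 128 CPM with miR-34a-WT and 120.4, 116, 124, 119 and 111 CPM in control libraries. Every miRNA library was above every control library, and SLBP rose by 0.17 with miR-34a-RS (SE 0.05, edgeR adjusted p = 0.00623) and by 0.22 with miR-34a-WT (SE 0.04, edgeR adjusted p = 3.13e-04). CHAF1A and CHAF1B, subunits of the complex that deposits histones behind the fork, passed in neither comparison, with values from -0.091 to 0.065.

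Against miR-34a-WT, a fit blocked on replicate number called 5 of the 45 genes lower and 1 higher with the altered guide (next paragraph). The fit without that block, described first, passed RRM2 alone, with log2 differences of the 45 genes from -0.17 to 0.14. RRM2 was lower with miR-34a-RS by 0.17 on the log2 scale (log2 fold change -0.17, SE 0.04, edgeR adjusted p = 0.025), and its groups did not overlap. That was 1 of 45 genes lower (2.22%) and 0 higher, and of all tested genes 0.535% were lower and 1.03% higher. The call was lost without miR-34a-RS replicate 2 (-0.18), 3 (-0.16) or 5 (-0.16) or miR-34a-WT replicate 2 (-0.16), 3 (-0.16) or 4 (-0.17). For TK1 the log2 difference was 0.05 (95% interval -0.11 to 0.21), and for CDT1 it was -0.0049 (95% interval -0.15 to 0.14).

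Libraries of miR-34a-RS and miR-34a-WT with the same replicate number deviated together, and blocking the fit on that number (replicate block) gave a larger count: 5 of the 45 genes lower and 1 higher, beside 3.43% of all tested genes lower and 3.41% higher. With the replicate block RRM2 was lower with miR-34a-RS by 0.17 (log2 fold change -0.17, edgeR adjusted p = 8.27e-04). The other lower genes under the block were RFC5 (-0.14, edgeR adjusted p = 0.0138), RFC3 (-0.12, edgeR adjusted p = 0.0434), ORC2 (-0.12, edgeR adjusted p = 0.0401) and CLSPN (-0.12, edgeR adjusted p = 0.0378). UNG was higher with miR-34a-RS under the block (0.14, edgeR adjusted p = 0.0144), where the fit without it gave 0.14 (95% interval 0.05 to 0.23, edgeR adjusted p = 0.120).

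Seed matches in the 3′ UTR were searched in the longest 3′ UTR among the basic protein-coding transcripts of each gene (GENCODE 29). The words, as DNA, were CACTGCCA (8mer), CACTGCC (7mer-m8), ACTGCCA (7mer-A1) and ACTGCC (6mer). The windows below are shown because TK1 and UNG, the genes that fell most, each hold a 7mer-m8 match, because MCM8 holds the 8mer match, and because TYMS and RFC5 hold the weaker types. POLD3 also holds a 7mer-A1 match, at the first base of its 3′ UTR. They are GRCh38 transcript sequence read 5′ to 3′, with the seed match in capitals at or next to the last base.
TK1 7mer-m8, chr17:78174718-78174739, minus strand: cgctcccttcctgcCACTGCCg
UNG 7mer-m8, chr12:109110416-109110437, plus strand: gtctctgccagttcCACTGCCc
UNG 7mer-A1, chr12:109110721-109110742, plus strand: tttaaggcagcacagACTGCCA
MCM8 8mer, chr20:5995411-5995432, plus strand: agctgctgacactcCACTGCCA
TYMS 7mer-A1, chr18:673504-673525, plus strand: ctttgttcattctgtACTGCCA
RFC5 6mer, chr12:118031484-118031505, plus strand: aatgtattaactcatACTGCCt
The TK1 match lies at base 35 of a 3′ UTR of 684 bases and is in 3 of the 4 coding transcripts, and the MCM8 match is in 1 of 5. The MCM8 window opens with AGCT, the complement of guide positions 13 to 16, and it is the gene among the 45 with such a stretch 1 to 15 bases from an 8mer or 7mer-m8 match.

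Few of the 45 genes had a seed match: 39 had none (86.7%), and of 13600 tested genes with a 3′ UTR 65.3% had none. With the longest 3′ UTR of any transcript, nonsense-mediated decay transcripts included, 36 of 45 had none (80.0%), beside 61.1% of 13651 genes. In that wider search 1 gene had an 8mer and 4 had a 7mer-m8 match. Calls by class were not counted for it, and those below are for the basic protein-coding transcripts. All 3 genes with an 8mer or 7mer-m8 match fell with miR-34a-RS and 2 of them fell with miR-34a-WT. Of all tested genes of that class 41.6% and 45.8% fell. The fall of MCM8 with miR-34a-RS did not hold in 11 of 21 alternatives. Of the 3 genes with a 7mer-A1 or 6mer match (TYMS, POLD3 and RFC5) 1 fell and 0 rose with miR-34a-RS, beside 30.8% and 16.4% of the tested genes of that class. With miR-34a-WT 1 fell and 1 rose, beside 31.7% and 21.1%. POLD3 had log2 fold changes of 0.0004 with miR-34a-RS and 0.091 with miR-34a-WT and passed in neither. Of the 39 genes without a match 6 fell and 4 rose with miR-34a-RS, beside 14.1% and 23.2% of the tested genes without one. With miR-34a-WT 6 fell and 7 rose, beside 17.3% and 27.2%. CDT1, RECQL4, LIG1 and RRM2 are among the genes without one. MCM8, with the stretch opposite the altered positions, had a log2 difference, miR-34a-RS minus miR-34a-WT, of -0.085 (95% interval -0.19 to 0.02, edgeR adjusted p = 0.555). A seed match is a description of these letters, and no binding was measured.

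**Figure D4:**
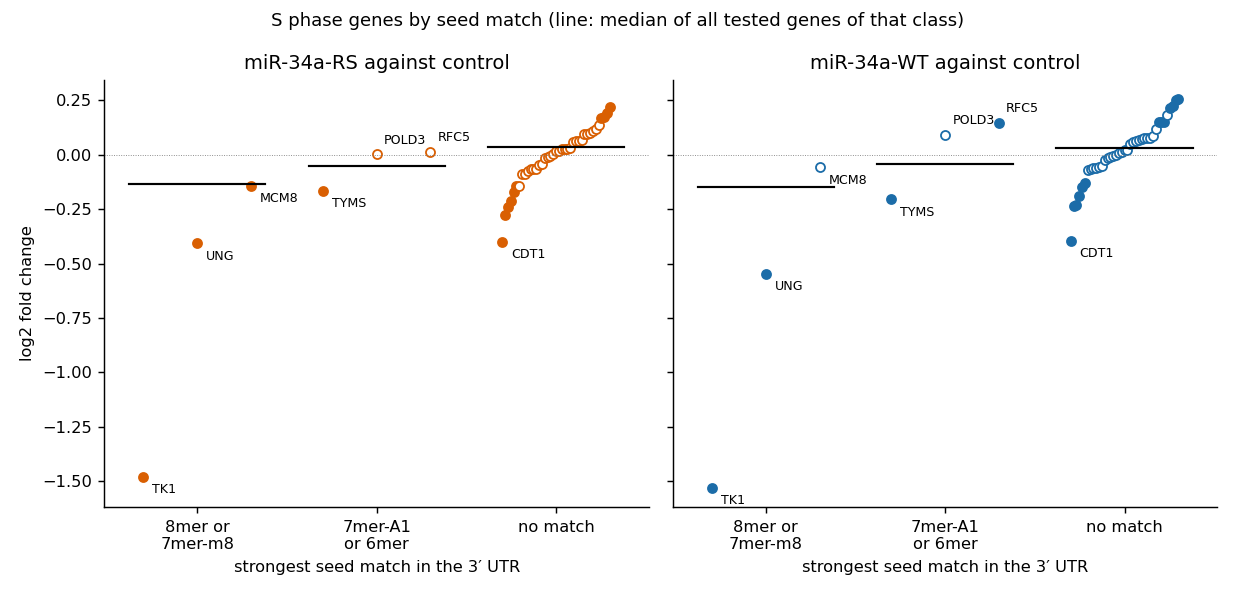
Log2 fold change against control (y axis) of the 45 genes by strongest seed match in the 3′ UTR (x axis), for miR-34a-RS (left) and miR-34a-WT (right); filled points passed an adjusted p of 0.05 and lines are medians of all tested genes of the class. TK1 and UNG lie below the line of their class, and the 39 genes without a match spread on both sides of 0.

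Promoters were read for 40 of the 45 genes from RefSeq (GRCh38.p14, 250 bases before to 50 after the gene start). DSCC1, POLD3, RECQL4, RPA2 and RPA3 had no entry. The words searched on both strands were TTTCCCGC, TTTGGCGC and TTTCGCGC, forms of the E2F motif, and CCAAT, the NF-Y motif, and no E2F word contains another. At least 1 E2F word was in 12 of the 40 promoters (30.0%), beside 4.43% of 12145 promoters of tested genes and 2.79% of all 27305 promoters. CCAAT was in 23 of 40 (57.5%), beside 36.4% and 35.7%. The 6 promoters with TTTCCCGC are shown because their genes fell, rose or did not pass under a shared word; 40 bases are given in the direction of the gene, with the word, or its reverse complement, in capitals.
TYMS, chr18:657598-657637, plus strand: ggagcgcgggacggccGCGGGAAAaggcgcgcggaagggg
CDT1, chr16:88803738-88803777, plus strand: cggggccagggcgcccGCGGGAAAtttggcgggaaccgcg
LIG1, chr19:48170435-48170474, minus strand: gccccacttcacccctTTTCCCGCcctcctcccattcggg
PCNA, chr20:5126658-5126697, minus strand: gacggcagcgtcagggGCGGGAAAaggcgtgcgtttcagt
RFC3, chr13:33818078-33818117, plus strand: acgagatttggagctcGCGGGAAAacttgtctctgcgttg
CLSPN, chr1:35769960-35769999, minus strand: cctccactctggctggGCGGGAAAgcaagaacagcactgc
TYMS, CDT1 and LIG1 fell with both miRNAs, RFC3 rose with miR-34a-WT, and PCNA and CLSPN did not pass against control. Of the 12 genes with an E2F word 5 fell and 1 rose with miR-34a-RS, and 3 fell and 3 rose with miR-34a-WT. Of the 28 without, 4 fell and 2 rose with miR-34a-RS, and 5 fell and 4 rose with miR-34a-WT. Of all tested genes, whatever their promoter, 18.4% fell and 16.2% rose with miR-34a-RS, and 21.3% fell and 18.9% rose with miR-34a-WT. Shares of all tested genes by promoter word were not computed, and the 28 may hold forms of the motif not searched here. These counts are therefore a description, and a link between word and call was not tested.

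Other genes of the pathway were taken from lists chosen by function, with no gene of the 45. Beside them, 18.4% of all tested genes fell and 16.2% rose with miR-34a-RS, and 21.3% fell and 18.9% rose with miR-34a-WT. Of 26 G1/S regulators 15 fell (57.7%) and 3 rose (11.5%) with miR-34a-RS, and as many with miR-34a-WT. E2F5, a repressive E2F, fell with both (log2 fold change -1.67 with miR-34a-RS and -1.66 with miR-34a-WT), as did CDK4 (-1.43 and -1.38) and CDK6 (-1.67 and -1.61). CDK4 and CDK6 are the cyclin D kinases of G1. Of the 10 MCM2 to MCM7 and GINS genes 5 fell (50%) and 1 rose (10%) with miR-34a-RS. With miR-34a-WT 6 fell (60%) and 1 rose (10%). The helicase subunit gene MCM3 fell with both (-0.98 with miR-34a-RS and -0.87 with miR-34a-WT), as did GINS3 (-1.01 and -0.997) and MCM2 (-0.58 and -0.72).

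Of 19 other nucleotide supply genes 3 fell (15.8%) and 2 rose (10.5%) with miR-34a-RS, and 4 fell (21.1%) and 5 rose (26.3%) with miR-34a-WT. The shares that fell were near those of all tested genes. SHMT1, a serine hydroxymethyltransferase that feeds thymidylate synthesis, fell by 0.27 (SE 0.05) with miR-34a-RS and fell by 0.37 (SE 0.04) with miR-34a-WT. PAICS, an enzyme of purine synthesis, fell by 0.21 (SE 0.05) with miR-34a-RS and fell by 0.12 (SE 0.04) with miR-34a-WT. CMPK1, a pyrimidine nucleotide kinase, had 0.082 (SE 0.05) with miR-34a-RS and rose by 0.26 (SE 0.05) with miR-34a-WT. Of 39 other replication genes tested 5 fell (12.8%) and 3 rose (7.69%) with miR-34a-RS, and 4 fell (10.3%) and 10 rose (25.6%) with miR-34a-WT. GMNN encodes geminin, the inhibitor of CDT1, and it fell by 0.88 (SE 0.05) with miR-34a-RS and fell by 0.76 (SE 0.05) with miR-34a-WT. ESCO2, an acetyltransferase of sister chromatid cohesion, rose by 0.26 (SE 0.06) with miR-34a-RS and by 0.46 (SE 0.06) with miR-34a-WT. DTL, which targets CDT1 for destruction, fell by 0.36 (SE 0.05) with miR-34a-RS and fell by 0.21 (SE 0.04) with miR-34a-WT. Of 10 checkpoint genes 2 fell (20%) and 4 rose (40%) with miR-34a-RS, and 2 fell (20%) and 5 rose (50%) with miR-34a-WT. Among them PKMYT1, a kinase that inhibits CDK1, fell (-0.40 with miR-34a-RS and -0.52 with miR-34a-WT), and WEE1, which acts in the same way, rose (0.14 and 0.31). HUS1, a subunit of the checkpoint clamp, rose by 0.17 with miR-34a-RS and by 0.38 with miR-34a-WT. Exons of SHMT1, MCM2, E2F5, CDK4 and PKMYT1 overlap a counted gene on the opposite strand.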

How the data were processed

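Libraries were made with the TruSeq RNA v2 kit, which does not mark strand, per the labels' protocols. The values are whole-number counts of reads for each gene, deposited by the authors in a table of 63140 genes by 14 libraries. STAR 2.7.11a, featureCounts of Subread 2.0.3, edgeR 3.42.4 and the build GRCh38 are named per the submitters' processing notes. The annotation release and the strand setting are not given in the sources used here. Every column matched the title of 1 sample.

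Genes were tested with edgeR 4.0.16 (R 4.3.3): TMM, filterByExpr by group, and glmQLFTest with robust dispersion in one fit of 3 group means over all 14 libraries. Benjamini-Hochberg adjustment ran over 18321 genes, with a threshold of 0.05. The SE is the log2 fold change divided by the root of F. CPM is scaled by TMM, and RPKM is CPM per kilobase of union exon. The test was tried on simulated data. Alternatives were other size factors, no filter, DESeq2 1.42.0, limma-voom (limma 3.58.1), a replicate block, only the groups compared, a minimum log2 fold change of 0.5, and leaving out each library.

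Replicates differed by more than sampling noise, so each library counted once. Deviations from group means, over 11259 genes, correlated at 0.372 to 0.716 between same-numbered miR-34a-RS and miR-34a-WT libraries. Other pairs of these groups had a mean of -0.134, which is no independent reference, since centring on group means itself lowers it. They reached at most 0.308, below every same-numbered pair, so the numbers were read as pairs in that comparison. The replicate block was fitted over all 14 libraries, so control libraries also carried the block terms. What a number marks is not stated.

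Exons of 11 of the 45 genes overlap a counted gene on the opposite strand by 20 to 1150 bases (TYMS, DUT, DBF4, TICRR, PRIM1, RFC4, RFC5, RPA1, RPA3, FEN1 and CHAF1A). Exons of 4 overlap a counted gene on the same strand (PRIM1, POLD3, FEN1 and CHAF1B). Annotated pseudogenes exist for 11 (TYMS, RRM2, DUT, DBF4, POLD2, PCNA, RFC3, RFC5, RPA2, FEN1 and UNG). The counts of all these genes are less certain. Seed matches used basic protein-coding transcripts of GENCODE 29 (3′ UTR of at least 20 bases). The plan was the longest 3′ UTR of any transcript, and both shares are given, since the longest was that of a nonsense-mediated decay transcript for some genes.

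The 45 genes and the other lists were chosen with earlier results of these data known. Values in every library are given for the 6 genes that fell most and the 6 that rose most with miR-34a-WT, of those past the threshold, the 3 and 3 of miR-34a-RS not already taken, genes past the threshold between both miRNAs without or with the block, and PCNA. Other lists are illustrated by up to 3 genes with the smallest adjusted p. Analyses used Python 3.11.15 and matplotlib 3.10.9.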

Additional observations from a re-analysis of the deposited data

Results flagged for a closer look

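In 8 of 135 sets of values (45 genes in 3 groups) 1 library stood apart from the rest of its group by Dixon's criterion at the 95% level, a rate near the 1 in 20 that chance gives. With miR-34a-RS, RFC3 had 160.5 CPM in replicate 1, against 141 to 143 CPM in the other replicates. With miR-34a-WT, DBF4 had 75.8 CPM in replicate 4 (others 83.6 to 86.8), TICRR 108 CPM in replicate 2 (others 119 to 121), RFC4 88.6 CPM in replicate 2 (others 78.5 to 81.3) and RFC1 145 CPM in replicate 1 (others 138 to 139.8). In control libraries, ORC1 had 67.0 CPM in replicate 5 (others 70.5 to 71.9), POLD2 146 CPM in replicate 1 (others 161 to 167) and RPA2 207 CPM in replicate 1 (others 186 to 189).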

How the results depend on the processing

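No fold change of the 45 genes reversed among those that passed a test, over 21 alternatives. TK1, UNG, CDT1, LIG1, RECQL4, RPA3, POLA2 and SLBP kept their calls in both comparisons with control in all 21. A minimum of 0.5 in log2 fold change left 1 lower and 0 higher of the 45 genes with miR-34a-RS (all genes 1144 and 605), 2 and 0 with miR-34a-WT (all genes 1409 and 623), and 0 lower between both miRNAs (all genes 2 lower, 36 higher). With the replicate block 14 genes fell and 7 rose with miR-34a-RS (all genes 4037 and 3678), and miR-34a-RS against miR-34a-WT had 5 lower and 1 higher (all genes 629 and 625). With no filter on low counts 6 fell with miR-34a-RS, without TYMS, ORC2, POLE and MCM8 (all genes 2823, against 3378 with the filter), 8 fell with miR-34a-WT (all genes 3517), and 0 were lower between both miRNAs (all genes 85). DESeq2 gave 2 lower and 1 higher between both miRNAs (all genes 220 and 268), and a fit of only these groups gave 60 lower of all genes.

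Leaving out 1 library gave 8 to 10 falls and 3 to 6 rises among the 45 genes with miR-34a-RS (all genes 2846 to 3396 and 2621 to 3335), and 6 to 9 falls and 8 to 10 rises with miR-34a-WT (all genes 3328 to 3971 and 3228 to 3728). Between both miRNAs it gave 0 to 2 lower and 0 to 1 higher, and over all genes 31 to 339 lower and 111 to 391 higher. Same-numbered libraries correlated at -0.002 to 0.478 between miR-34a-RS and control (mean 0.273, other pairs -0.07). Between miR-34a-WT and control the range was -0.156 to 0.557 (mean 0.291, other pairs -0.071). The means lay above those of other pairs against control too, but centring on group means itself lowers the mean of other pairs. Other pairs reached 0.295 between miR-34a-RS and control and 0.356 between miR-34a-WT and control, so the ranges overlapped. The main calls against control use no block. With the replicate block 10 genes fell and 12 rose with miR-34a-WT (all genes 4648 and 4169). The cause of the shifts in the counts was not tested. The counts, at least 644 per library, leave little counting error, and the 4 or 5 libraries per group limit precision.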
